A study of Saccharomyces cerevisiae with 41 samples.

Results

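The phosphate regulon genes described here are 9 budding yeast genes of phosphate uptake, release and storage: PHO89, PHO84, SPL2, PHO5, PHO11, PHO3, PHO8, VTC3 and PHO4. They were chosen by name, each as the probe set annotated to its symbol, and each had 1 such probe set on the array. All 9 passed the filter on dim probe sets, as did 5337 genes in all. Transcript levels were measured on 41 Affymetrix Yeast 2.0 arrays of total RNA, and every value below is a log2 signal as the authors normalized it unless a fold is named.

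All strains had the YPH499 background. The deletion strains were mig3Δ, which lacks a zinc finger repressor of the Mig family, snf1Δ, which lacks the AMP-activated protein kinase needed for growth on carbon sources other than glucose, and rad23Δ and rad4Δ, which lack partners in damage recognition for nucleotide excision repair. A double deletion strain, snf1Δ rad23Δ, and the wild type (WT) complete the set. Each strain was grown in YPD, a rich glucose medium, at 30 °C to an OD600 of 1.0, passed briefly through water, given 100 J/m2 of UV-C or a mock treatment, and irradiated cells were returned to fresh YPD. Samples were taken before UV and then at 30 and 60 min in every strain, and at 15 min also in mig3Δ, snf1Δ and WT. Each of these 21 groups had 2 arrays, described as biological replicates, except mig3Δ at 15 min, of which 1 array was used. Nothing else says that the replicates were separate cultures, so the p-values measure the spread between these samples, which may be partly technical. No array of cells mock treated and returned to fresh YPD for 15 to 60 min was used, so the effects of UV and of the change of medium cannot be told apart, and neither can levels per cell and the mix of cells.

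In budding yeast, phosphate starvation is read by a cyclin and kinase pair, Pho80 and Pho85, which is held back by the inhibitor Pho81 when phosphate is scarce. The unphosphorylated transcription factor Pho4 then stays in the nucleus and, with Pho2, switches on genes for phosphate transporters, secreted phosphatases and polyphosphate synthesis. PHO84, PHO5, PHO11, SPL2, VTC3 and PHO89 are known targets of Pho4, PHO8 is a weaker one, and PHO3 is the constitutive neighbour of PHO5 and is controlled by thiamine instead.

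The deleted genes bore out the labels: MIG3 lay at 1.97 to 1.98 on the 7 mig3Δ arrays and at 8.20 to 10.21 elsewhere, SNF1 at 2.09 to 2.74 on 14 arrays and 10.69 to 11.92 elsewhere, RAD23 at 1.91 to 2.14 on 12 arrays and 12.01 to 13.49 elsewhere, and RAD4 at 1.99 to 2.27 on 6 arrays and 7.59 to 9.13 elsewhere. The 7 genes specific to the a mating type of this background were all at 6.93 or more. Of 4 alpha-specific genes, MFALPHA1 reached at most 4.82 and MFALPHA2 4.49, while STE3 reached 9.26 and SAG1 11.08. Replicates differed most in 3 groups: 780 probe sets lay over 2-fold apart in WT at 60 min, 370 in mig3Δ at 30 min and 384 in mig3Δ at 60 min, against 5 to 282 in the other 17 groups with replicates. The difference between the 3′ and 5′ probe sets of SPT15, a sign of RNA or labelling quality, was 1.95 to 2.18 in the rad23Δ and snf1Δ rad23Δ groups and 1.23 to 1.63 in the other 15, while that of ACT1 did not separate them (0.09 to 0.22 against 0.11 to 0.25). Its part in the rad23Δ results below was not tested.

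The 9 genes were not called more often than the rest of the genome in the UV response. A call is a limma moderated test with a Benjamini-Hochberg adjusted p under 0.05 over the 5380 probe sets of a contrast. Over 15 UV responses, 36 of 135 tests were called, 16 higher and 20 lower, which is 26.7% beside 28.9% for all probe sets. Unirradiated deletion strains gave 15 calls in 45 tests against WT (33.3% beside 29.3%), and irradiated ones 23 in 108 (21.3% beside 26.2%). What set the genes apart from each other was the direction: PHO89 accounted for 8 of the rises after UV and PHO3 for 9 of the falls.

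PHO89 encodes the sodium-dependent phosphate transporter of the plasma membrane, which works at alkaline pH. Its mean was lowest in unirradiated cells and highest at 30 min in 6 of 6 strains, and the extent differed greatly between strains. In rad4Δ cells PHO89 measured 8.66 and 8.84 unirradiated, 13.50 and 13.08 at 30 min, and 12.63 and 12.09 at 60 min. The unirradiated arrays lay far below both later times and did not overlap them. The rise in rad4Δ was 4.55 at 30 min (SE 0.39, adjusted p = 3.27e-08, 23.4-fold) and 3.61 at 60 min (adjusted p = 1.04e-07, 12.2-fold).

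In WT cells PHO89 measured 11.93 and 11.35 unirradiated, 13.52 and 13.14 at 15 min, 14.10 and 14.06 at 30 min, and 12.16 and 12.05 at 60 min. The 30 min arrays stood above all other WT arrays, and the 60 min arrays lay close above the unirradiated ones. PHO89 rose by 2.44 at 30 min (adjusted p = 9.30e-05, 5.41-fold) and then fell by 1.97 between 30 and 60 min (adjusted p = 9.89e-04), so that the difference at 60 min was 0.46 (adjusted p = 0.374). The rise of 1.69 at 15 min (adjusted p = 0.00968) lost its call without unirradiated replicate 2 (1.40) or 15 min replicate 1 (1.50).

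Among the other strains PHO89 rose at 30 min by 2.03 in mig3Δ (adjusted p = 0.00113), by 1.53 in snf1Δ (adjusted p = 0.0044) and by 1.16 in rad23Δ (adjusted p = 0.0273). The rad23Δ call was lost without unirradiated replicate 1 (0.92) or either 30 min replicate (1.25 and 1.07). In snf1Δ rad23Δ, where PHO89 measured 13.27 and 13.42 unirradiated against 13.69 and 13.91 at 30 min, the arrays did not overlap but the difference of 0.45 was not called (adjusted p = 0.375). At 60 min mig3Δ gave a rise of 1.36 (adjusted p = 0.0196) that rested on replicate 2, since the arrays read 11.42 and 13.70. Without that array the difference was 0.22, and without unirradiated replicate 1 or 2 it was 1.44 or 1.29, also uncalled.

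Before UV, PHO89 differed between strains more than any other of the 9 genes. It averaged 13.49 ± 0.35 in rad23Δ, 13.35 ± 0.10 in snf1Δ rad23Δ, 12.52 ± 0.17 in snf1Δ, 11.20 ± 0.10 in mig3Δ and 8.75 ± 0.13 in rad4Δ, against 11.64 ± 0.41 in WT (SD, n = 2 each). Arrays of neighbouring strains in this order overlapped only between rad23Δ and snf1Δ rad23Δ. Relative to WT, PHO89 was 7.45-fold lower in rad4Δ (-2.90, adjusted p = 3.35e-05), 3.61-fold higher in rad23Δ (1.85, adjusted p = 4.66e-04) and 3.26-fold higher in snf1Δ rad23Δ (1.70, adjusted p = 0.00142). Each of these calls held without any of its 4 arrays. The snf1Δ difference of 0.88 was not called (adjusted p = 0.0685). At 60 min PHO89 was still higher than in WT by 1.78 in rad23Δ (adjusted p = 5.93e-04) and by 1.30 in snf1Δ rad23Δ (adjusted p = 0.00753), though the second was lost with array weights (adjusted p = 0.158). PHO89 was the only gene of the 9 called in unirradiated rad4Δ, where 6.75% of all probe sets were called.

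**Figure D1:**
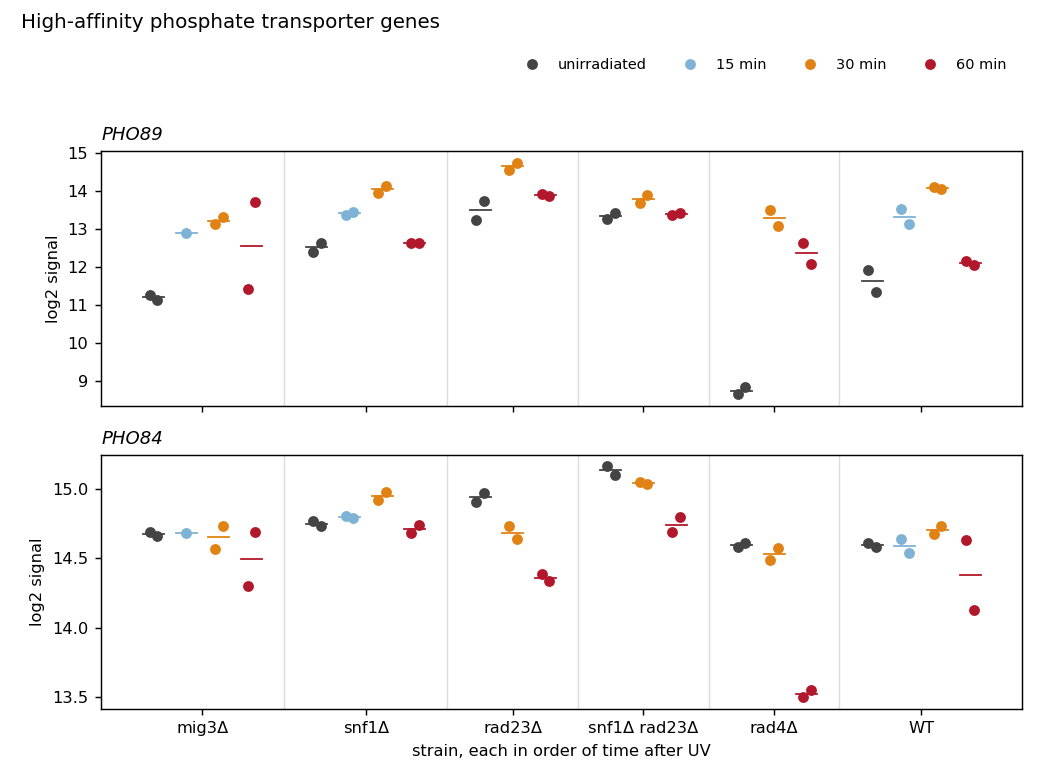
PHO89 and PHO84 log2 signal (vertical axis) by strain and time after UV (horizontal axis), with unirradiated cells at the left, in each of 6 strains; points are arrays and bars are group means. PHO89 in rad4Δ sits at 8.66 and 8.84 before UV, under every other array, and at 13.50 and 13.08 at 30 min, while PHO84 stays between 13.50 and 15.17 throughout.

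PHO84 encodes the high-affinity proton-coupled phosphate transporter, the main route of uptake in phosphate-starved cells. It was among the brightest probe sets, at 13.50 to 15.17 where array maxima were 15.53 to 15.96, a range in which the signal may compress. In rad4Δ cells PHO84 measured 14.58 and 14.61 unirradiated, 14.49 and 14.57 at 30 min, and 13.50 and 13.55 at 60 min. The 60 min arrays were the lowest of all 41 and stood apart from the earlier ones. The fall in rad4Δ at 60 min was 1.07 below the unirradiated level (difference -1.07, SE 0.12, adjusted p = 1.73e-07), and rad4Δ was also lower than WT at that time (-0.86, adjusted p = 7.52e-06). Set against unirradiated rad4Δ cells, PHO84 was thus lower and PHO89 higher at 60 min. Between 30 and 60 min both means fell, PHO84 from 14.53 to 13.52 and PHO89 from 13.29 to 12.36, the PHO89 step uncalled.

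The PHO84 mean was lowest at 60 min in 6 of 6 strains, but only 2 other strains passed the test against their unirradiated cells. The difference was -0.58 in rad23Δ (adjusted p = 5.98e-04) and -0.39 in snf1Δ rad23Δ (adjusted p = 0.00913), the second of which was lost without unirradiated replicate 1 (-0.36) or 60 min replicate 1 (-0.34). In the remaining strains the 60 min arrays overlapped the unirradiated ones. They read 14.63 and 14.13 against 14.61 and 14.59 in WT, and 14.30 and 14.69 against 14.69 and 14.66 in mig3Δ. In snf1Δ they read 14.68 and 14.74 against 14.77 and 14.73. Unirradiated, PHO84 measured 15.17 and 15.11 in snf1Δ rad23Δ and 14.91 and 14.97 in rad23Δ, against 14.61 and 14.59 in WT. These strains did not overlap with WT. The difference from WT was 0.54 in snf1Δ rad23Δ (adjusted p = 0.0012) and 0.34 in rad23Δ (adjusted p = 0.0218), and the rad23Δ call was lost without any of its 4 arrays (0.31 to 0.38).

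SPL2 encodes an inhibitor of the low-affinity phosphate carriers Pho87 and Pho90, made when Pho4 is active. In WT cells SPL2 measured 12.39 and 12.24 unirradiated, 12.67 and 12.55 at 15 min, 11.75 and 11.76 at 30 min, and 11.45 and 10.60 at 60 min. The 15 min arrays were the highest, and each later time lay below the unirradiated arrays without overlap. SPL2 fell by 1.28 at 60 min in WT (adjusted p = 0.00227), a call lost without 60 min replicate 2 (-0.86), and by 1.18 in rad4Δ (adjusted p = 0.00181), where the arrays read 12.17 and 12.28 unirradiated and 10.98 and 11.12 at 60 min.

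No SPL2 response passed the test in rad23Δ, snf1Δ or snf1Δ rad23Δ. The SPL2 means of rad23Δ, which has SNF1, differed least over time, by 0.11, beside 0.74 in snf1Δ and 0.65 in snf1Δ rad23Δ. At 30 min SPL2 measured 13.00 and 12.92 in snf1Δ and 12.81 and 13.09 in snf1Δ rad23Δ, against 11.75 and 11.76 in WT. Both strains stood above WT with no overlap, by 1.21 (adjusted p = 0.00433) and 1.19 (adjusted p = 0.00306). At 60 min SPL2 was higher than in WT by 1.29 in snf1Δ (adjusted p = 0.0065), 1.02 in rad23Δ (adjusted p = 0.0062) and 1.28 in snf1Δ rad23Δ (adjusted p = 0.00103). The snf1Δ and rad23Δ calls were lost without WT replicate 2 (0.86 and 0.59) or replicate 2 of the deletion strain (1.23 and 0.93). In mig3Δ, SPL2 measured 11.13 and 11.06 unirradiated, below every other unirradiated array. The difference of -1.22 from WT (adjusted p = 0.0125) lost its call when any of its 4 arrays was left out (-1.14 to -1.29). A rise of 0.90 at 30 min in mig3Δ (adjusted p = 0.0304) rested on replicates of 11.51 and 12.49, and was lost without unirradiated replicate 1 (0.94) or 2 (0.87) or 30 min replicate 2 (0.42).

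PHO5 encodes the major secreted acid phosphatase that is repressed by phosphate, the classical reporter of the pathway. Its level followed SNF1: on the 14 arrays of strains without SNF1 it lay between 14.37 and 15.07, and on the 27 arrays with SNF1 between 9.0 and 12.93. No array of either kind fell in the other range, at any time. The higher range lies near the array maxima of 15.53 to 15.96, where the signal may compress. Unirradiated, PHO5 measured 14.85 and 14.80 in snf1Δ and 15.07 and 15.04 in snf1Δ rad23Δ, against 12.84 and 12.58 in WT. It was thus 4.34-fold higher in snf1Δ (2.12, SE 0.50, adjusted p = 0.00134) and 5.07-fold higher in snf1Δ rad23Δ (2.34, adjusted p = 7.94e-04) than in WT. Set against the RAD23 deletion alone, snf1Δ rad23Δ was higher by 2.88 (adjusted p = 1.54e-04), while rad23Δ alone measured 12.09 and 12.25, a difference of -0.54 from WT that was not called.

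The same held after UV. PHO5 was higher than in WT by 2.23 in snf1Δ at 15 min (adjusted p = 0.00163), by 2.22 at 30 min (adjusted p = 0.00219) and by 3.45 at 60 min (adjusted p = 9.16e-05, 10.9-fold). In snf1Δ rad23Δ it was higher by 2.33 at 30 min (adjusted p = 9.75e-04) and 3.76 at 60 min (adjusted p = 2.66e-06, 13.6-fold). These calls held without any of their arrays. The larger differences at 60 min came with lower WT arrays, which read 11.60 and 10.30, and the snf1Δ 60 min call was lost when limma was given its 4 arrays alone (adjusted p = 0.372). No difference of the PHO5 UV response from WT was called.

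The PHO5 mean was lowest at 60 min in 6 of 6 strains, yet only the WT fall of 1.76 was called (adjusted p = 0.0103). It was lost without unirradiated replicate 1 (-1.63) or 60 min replicate 2 (-1.11), and with array weights (adjusted p = 0.0843). The low 60 min mean of mig3Δ rested on replicate 1, since the arrays read 9.0 and 11.73, the second above every other mig3Δ array. In rad23Δ the 60 min arrays, 11.81 and 12.33, overlapped the unirradiated 12.09 and 12.25. In mig3Δ, PHO5 measured 11.45 and 11.27 unirradiated against 12.84 and 12.58 in WT, without overlap, and the difference of -1.35 was not called (adjusted p = 0.0988). At 30 min the mig3Δ arrays read 11.27 and 10.27 against 12.56 and 12.49 in WT. That difference of -1.75 (adjusted p = 0.0201) was lost without mig3Δ replicate 2 (-1.25) or WT replicate 1 (-1.72) or 2 (-1.78).

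**Figure D2:**
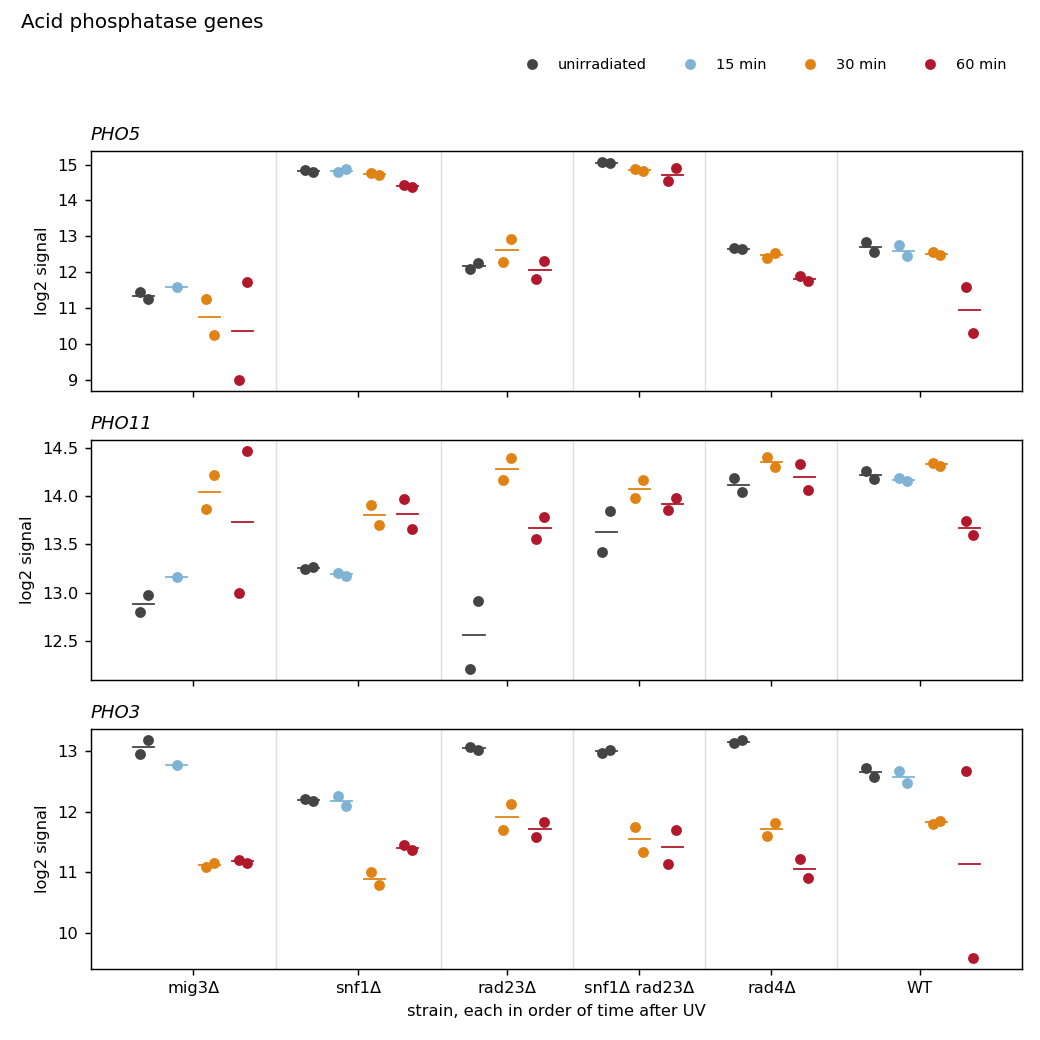
PHO5, PHO11 and PHO3 log2 signal (vertical axis) by strain and time after UV (horizontal axis) in each of 6 strains; points are arrays and bars are group means. PHO5 lies between 14.37 and 15.07 on every array of the snf1Δ and snf1Δ rad23Δ strains and between 9.0 and 12.93 on the others. The PHO3 mean is highest before UV in every strain.

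PHO11 encodes a secreted acid phosphatase closely related to Pho5 and also repressed by phosphate. Its near-identical copy PHO12 had no probe set of its own, and the PHO11 probe set is of a kind that may read both genes. Unlike PHO5, PHO11 was lower in unirradiated snf1Δ than in WT. It measured 13.24 and 13.27 in unirradiated snf1Δ, 12.21 and 12.91 in rad23Δ and 12.80 and 12.98 in mig3Δ, against 14.26 and 14.18 in WT, and none of these arrays reached the WT level. PHO11 was 3.16-fold lower in rad23Δ (-1.66, SE 0.28, adjusted p = 4.93e-05), and differed by -1.33 in mig3Δ (adjusted p = 0.00426) and by -0.96 in snf1Δ (adjusted p = 0.00721). The snf1Δ rad23Δ difference of -0.59 was not called (adjusted p = 0.0998), and snf1Δ rad23Δ exceeded rad23Δ by 1.07 (adjusted p = 0.0066), a call lost without rad23Δ replicate 1 (0.72) or double deletion replicate 2 (0.86).

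PHO11 rose after UV in rad23Δ and mig3Δ. In rad23Δ it measured 12.21 and 12.91 unirradiated, 14.16 and 14.40 at 30 min, and 13.55 and 13.79 at 60 min, with no overlap between times. The rise was 1.72 at 30 min (adjusted p = 9.99e-05, 3.30-fold) and 1.11 at 60 min (adjusted p = 0.00307), of which the second was lost without unirradiated replicate 1 (0.76). In mig3Δ the rise was 1.16 at 30 min (adjusted p = 0.00582), lost without unirradiated replicate 1 (1.07) or 30 min replicate 2 (0.98). At 60 min it was 0.85 (adjusted p = 0.0403), lost without unirradiated replicate 1 (0.76) or 2 (0.94), and 0.11 without 60 min replicate 2. By 30 min the PHO11 arrays read 13.87 and 14.22 in mig3Δ and 14.16 and 14.40 in rad23Δ, against 14.35 and 14.31 in WT, where no response was called.

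PHO3 encodes the constitutive acid phosphatase, adjacent to PHO5 with 0 genes between them in the R64 annotation. Its mean was highest in unirradiated cells in 6 of 6 strains. At 15 min PHO3 overlapped unirradiated cells in snf1Δ (12.26 and 12.10 against 12.22 and 12.17) and in WT (12.68 and 12.49 against 12.74 and 12.58). On the 24 arrays at 30 and 60 min it lay between 9.59 and 12.68, against 12.17 to 13.19 on the 12 unirradiated ones, and it fell in 9 of 15 UV responses. In rad4Δ PHO3 measured 13.14 and 13.19 unirradiated, 11.61 and 11.81 at 30 min, and 11.22 and 10.90 at 60 min. The arrays of each later time lay below those of the time before. The fall in rad4Δ at 60 min (difference -2.10, SE 0.49, adjusted p = 9.36e-04, 4.29-fold) held without any array, while that of 1.45 at 30 min (adjusted p = 0.0253) was lost without any of its 4 arrays (-1.35 to -1.55).

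PHO3 also fell in mig3Δ by 1.96 at 30 min (adjusted p = 0.00696) and by 1.89 at 60 min (adjusted p = 0.0117), both lost without unirradiated replicate 2 (-1.84 and -1.77). In snf1Δ rad23Δ it fell by 1.58 at 60 min (adjusted p = 0.00955), lost without 60 min replicate 1 (-1.29), and by 1.45 at 30 min (adjusted p = 0.0234), lost without either unirradiated replicate (-1.48 and -1.42) or 30 min replicate 2 (-1.24). Falls of 1.30 in snf1Δ at 30 min (adjusted p = 0.0463) and 1.34 in rad23Δ at 60 min (adjusted p = 0.0310) were lost without any of their 4 arrays (-1.19 to -1.41 and -1.22 to -1.46). The WT arrays at 60 min read 12.68 and 9.59 against 12.74 and 12.58 unirradiated, so they overlap. The WT call of -1.52 (adjusted p = 0.0213) rested on replicate 2, without which the difference was 0.02. It was also lost without unirradiated replicate 1 (-1.45) or 2 (-1.60).

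PHO5 and PHO3, though neighbours, were set apart by strain and by time. Over the 21 group means their Pearson r was 0.05, a description of points that share strains and times.

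PHO8 encodes the vacuolar alkaline phosphatase. It varied least of the 9, between 12.75 and 13.46 over the 41 arrays. Unirradiated, it measured 13.12 and 13.25 in snf1Δ against 13.23 and 13.14 in WT, a difference of 0.00 (adjusted p = 0.989). Its lone called UV response was in rad4Δ at 60 min, where 12.80 and 12.75 stood against 13.09 and 13.15 unirradiated. That fall of 0.35 (adjusted p = 0.0283) was lost without any of its 4 arrays (-0.32 to -0.37).

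VTC3 encodes a subunit of the vacuolar transporter chaperone complex, which makes polyphosphate, the phosphate store of the vacuole. Before UV, VTC3 measured 12.39 and 12.71 in rad23Δ and 12.98 and 13.04 in mig3Δ, against 13.73 and 13.80 in WT. Both strains lay below WT, and rad23Δ below every other strain. The difference was -1.22 in rad23Δ (SE 0.16, adjusted p = 3.34e-06) and -0.76 in mig3Δ (adjusted p = 0.00571), the second lost without WT replicate 2 (-0.72). In snf1Δ rad23Δ, which also lacks RAD23, VTC3 measured 13.59 and 13.78, above rad23Δ by 1.13 (adjusted p = 1.89e-05) and overlapping WT. The rad23Δ arrays stayed below WT at 30 min (-0.80, adjusted p = 4.93e-04) and 60 min (-1.01, adjusted p = 2.70e-05).

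The VTC3 mean was lowest at 60 min in 4 of 6 strains. In the others it hardly differed between unirradiated cells and 60 min, at 13.49 and 13.50 in snf1Δ and 13.01 and 13.02 in mig3Δ. In mig3Δ, though, VTC3 at 60 min read 12.61 and 13.42, on either side of 12.98 and 13.04 unirradiated. In rad4Δ it measured 13.66 and 13.65 unirradiated, 13.57 and 13.46 at 30 min, and 12.59 and 12.62 at 60 min. The first pairs lay close together and the 60 min pair well below. The fall at 60 min was 1.05 in rad4Δ (adjusted p = 1.31e-05), 0.84 in snf1Δ rad23Δ (adjusted p = 2.15e-04) and 0.67 in WT (adjusted p = 0.00377). The WT fall was lost without 60 min replicate 2 (-0.53) and with array weights (adjusted p = 0.133). In rad23Δ VTC3 rose by 0.47 at 30 min (adjusted p = 0.0357), lost without unirradiated replicate 1 (0.31) or 30 min replicate 1 (0.49) or 2 (0.45). It then lay below the unirradiated level by 0.46 at 60 min (difference -0.46, adjusted p = 0.0266), lost without unirradiated or 60 min replicate 2 (-0.30 each).

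Between 30 and 60 min VTC3 fell in WT (-0.72, adjusted p = 0.00297), rad23Δ (-0.93, adjusted p = 0.0015), snf1Δ rad23Δ (-0.64, adjusted p = 0.0086) and rad4Δ (-0.91, adjusted p = 2.43e-04). The rad23Δ call was lost without 60 min replicate 2 (-0.77), the snf1Δ rad23Δ call without 30 min replicate 1 (-0.54) or 60 min replicate 1 (-0.60), and the WT call with array weights (adjusted p = 0.106). Over the 9 genes this comparison, added after the values were seen, called 0 higher and 11 lower of 54 (20.4% beside 19.1% for all probe sets), 4 of them VTC3.

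**Figure D3:**
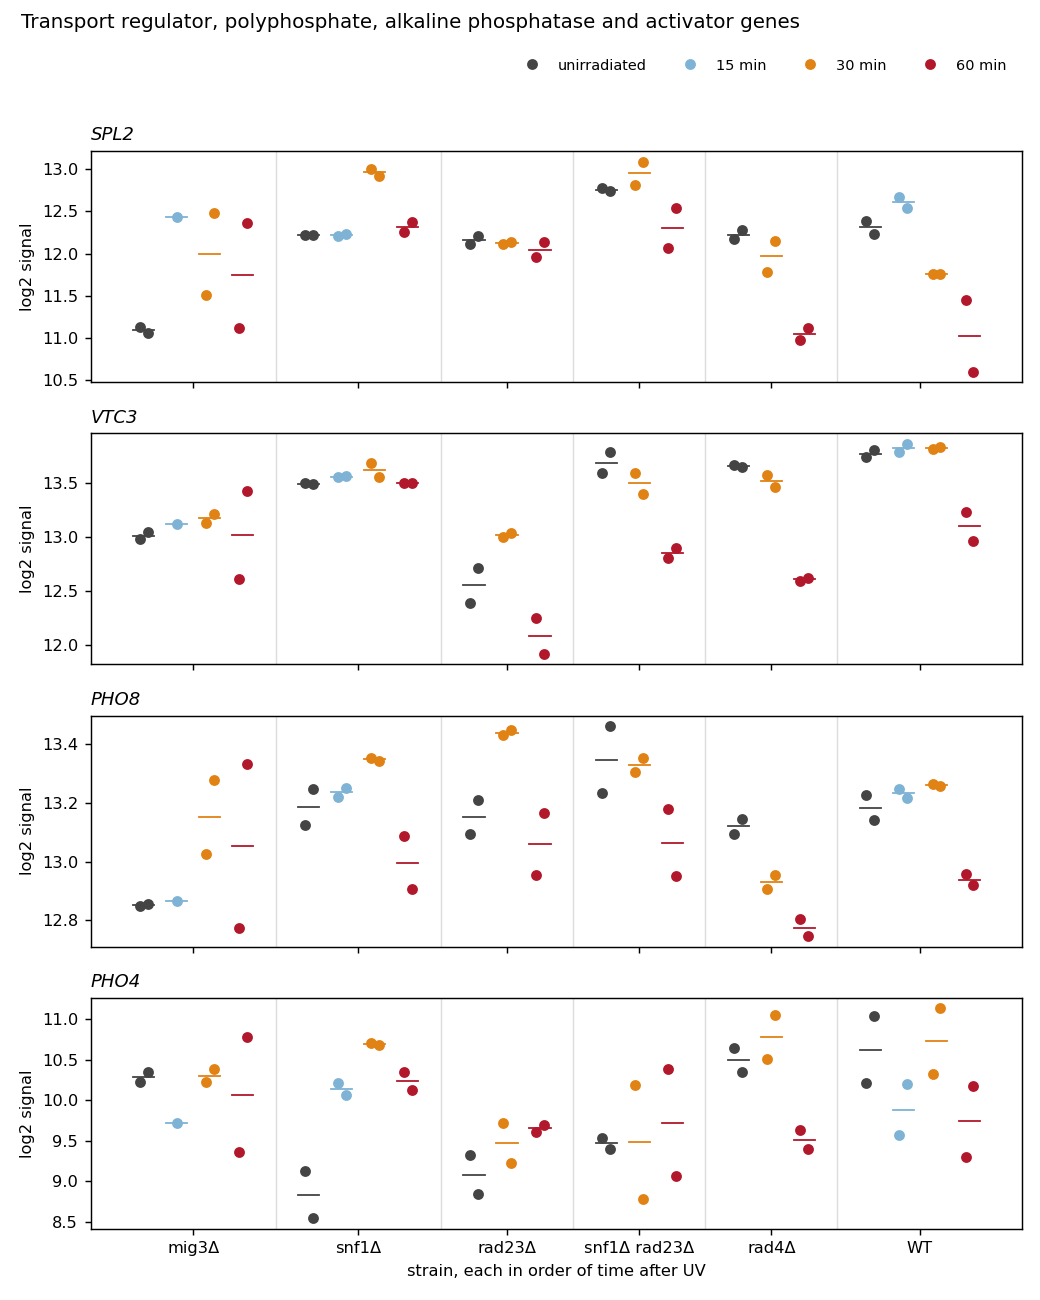
SPL2, VTC3, PHO8 and PHO4 log2 signal (vertical axis) by strain and time after UV (horizontal axis) in each of 6 strains; points are arrays and bars are group means. VTC3 is lowest in rad23Δ before UV, at 12.39 and 12.71, and PHO4 in snf1Δ reads 9.13 and 8.54 before UV and 10.70 and 10.68 at 30 min.

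PHO4 encodes the transcription factor of the pathway, whose activity is known to be set mainly by phosphorylation and location of the protein. Its replicates lay furthest apart of the 9, with a median SD of 0.35 over groups and unirradiated WT replicates at 10.21 and 11.04. In snf1Δ PHO4 measured 9.13 and 8.54 unirradiated, 10.21 and 10.06 at 15 min, 10.70 and 10.68 at 30 min, and 10.34 and 10.13 at 60 min. All irradiated arrays lay above the unirradiated ones. PHO4 was lower in unirradiated snf1Δ than in WT by 1.79 (difference -1.79, SE 0.46, adjusted p = 0.0030), a call lost without WT replicate 2 (-1.37).

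The rise of PHO4 in snf1Δ was 1.86 at 30 min (adjusted p = 0.00386), lost without unirradiated replicate 2 (1.57). At 60 min it was 1.40 (adjusted p = 0.0178), lost without unirradiated replicate 2 (1.11) or 60 min replicate 1 (1.29) or 2 (1.51). Unirradiated rad23Δ arrays, at 9.33 and 8.84, also lay below WT (-1.54, adjusted p = 0.00876), and that call was lost without WT replicate 2 (-1.12) or rad23Δ replicate 2 (-1.29). No UV response of PHO4 passed the test in WT, mig3Δ, rad23Δ, snf1Δ rad23Δ or rad4Δ.

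In unirradiated mig3Δ 3 of the 9 genes were called against WT, 0 higher and 3 lower, where 8.31% of all probe sets were called. The counts were 3 in snf1Δ, 1 higher and 2 lower (45.3% called), 5 in rad23Δ, 2 higher and 3 lower (47.6%), 3 in snf1Δ rad23Δ, all higher (38.6%), and 1 in rad4Δ, lower (6.75%). The median difference over the 9 genes was -0.44 in mig3Δ, beside -0.07 for all probe sets, and 0.34 in snf1Δ rad23Δ, beside -0.10. All 5 comparisons share the same 2 WT arrays. Of 18 tests of snf1Δ rad23Δ against a strain with 1 of its deletions, 4 were called, all higher (22.2% beside 23.2% for all probe sets).

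**Figure D4:**
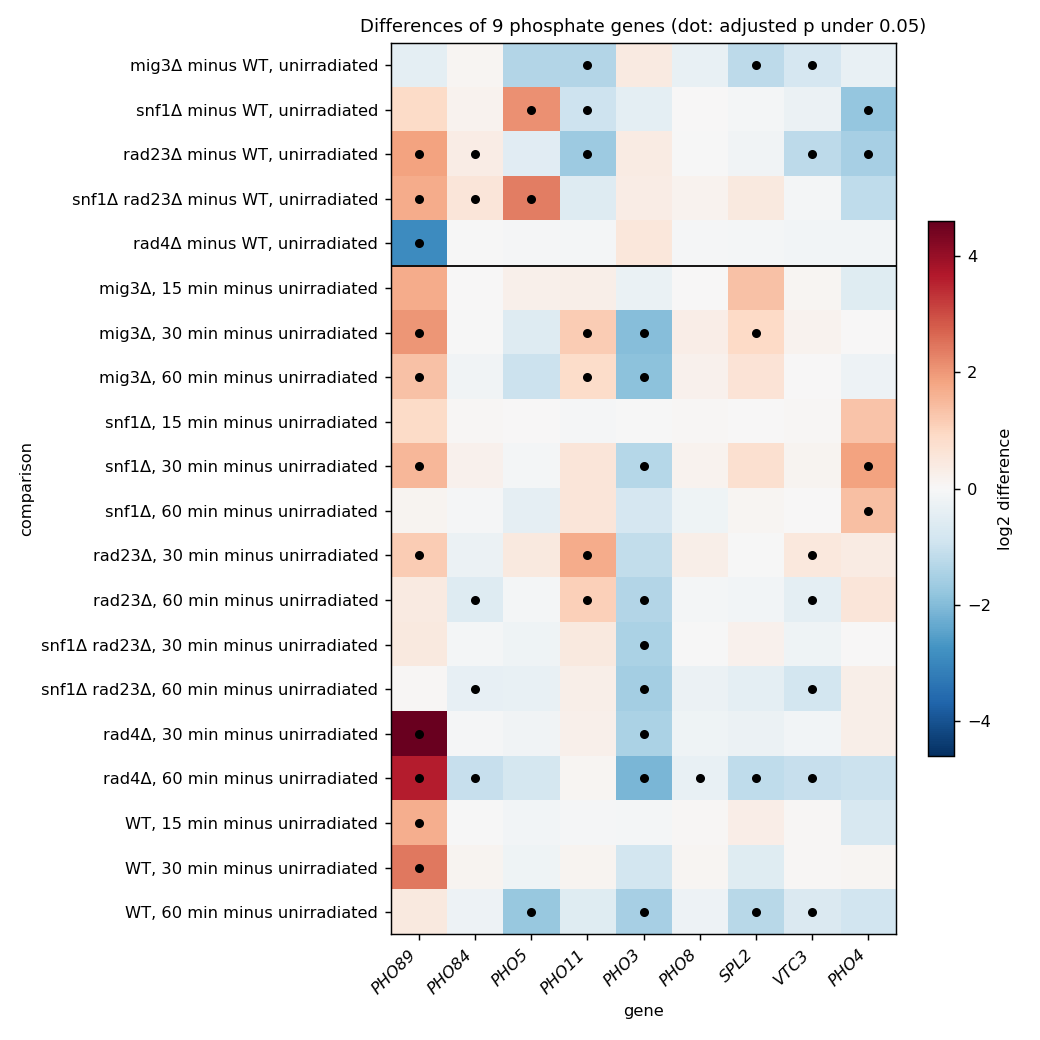
Log2 differences of the 9 genes (columns) for 5 unirradiated deletion strains minus WT (upper rows) and for irradiated minus unirradiated cells of each strain (lower rows), with colour for size and direction and a dot where the adjusted p was under 0.05. The strongest colour is the rise of PHO89 in rad4Δ at 30 min, 4.55, and PHO3 is negative at 30 and 60 min in all 6 strains, although WT at 60 min gives 0.02 without replicate 2.

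Among UV responses, the largest count was in rad4Δ at 60 min, with 6 of the 9 genes called, 1 higher and 5 lower. There 53.8% of all probe sets were called, and the median of the 9 was -0.98 beside 0.0001 for all. At 30 min rad4Δ had 2 called, 1 higher and 1 lower (32.5% of probe sets called). In WT 1 gene was called at 15 min (5.91% of probe sets called) and 1 at 30 min (25.1%), both PHO89, and 4 at 60 min, all lower (30.6%), with a median of -0.67 beside -0.05. The mig3Δ strain had 0 calls at 15 min, where 1 array stood against 2 and 0.743% of probe sets were called, 4 at 30 min (23.6%) and 3 at 60 min (17%). In snf1Δ there were 0 calls at 15 min (9.87%), 3 at 30 min (31.1%) and 1 at 60 min (43.5%). The rad23Δ strain had 3 at 30 min (28.5%) and 4 at 60 min (43%), and snf1Δ rad23Δ 1 at 30 min (35.5%) and 3 at 60 min (52.8%).

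The test of whether a UV response itself differed from that of WT called 10 of 108 (9.26% beside 7.3% for all probe sets), 8 higher and 2 lower. Of these, 3 held without any of their 8 arrays, and the other 7 did not. The PHO89 response at 60 min exceeded that of WT by 3.15 in rad4Δ (SE 0.55, adjusted p = 4.36e-04, 8.88-fold), where rad4Δ began 2.90 below WT. The PHO84 response at 60 min was lower in rad4Δ by 0.86 (difference -0.86, SE 0.17, adjusted p = 0.00136). The PHO11 response at 60 min was higher in rad23Δ by 1.66 (SE 0.40, adjusted p = 0.00756). There the unirradiated means were 12.56 in rad23Δ and 14.22 in WT, while both strains averaged 13.67 at 60 min. The PHO11 call was lost with array weights (adjusted p = 0.0619). When limma was given the 8 arrays of the contrast alone, the PHO11 call (adjusted p = 0.0758) and the PHO84 call (adjusted p = 0.115) were lost. For PHO89 in rad4Δ at 30 min the difference was 2.11 and was not called (adjusted p = 0.0661).

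**Figure D5:**
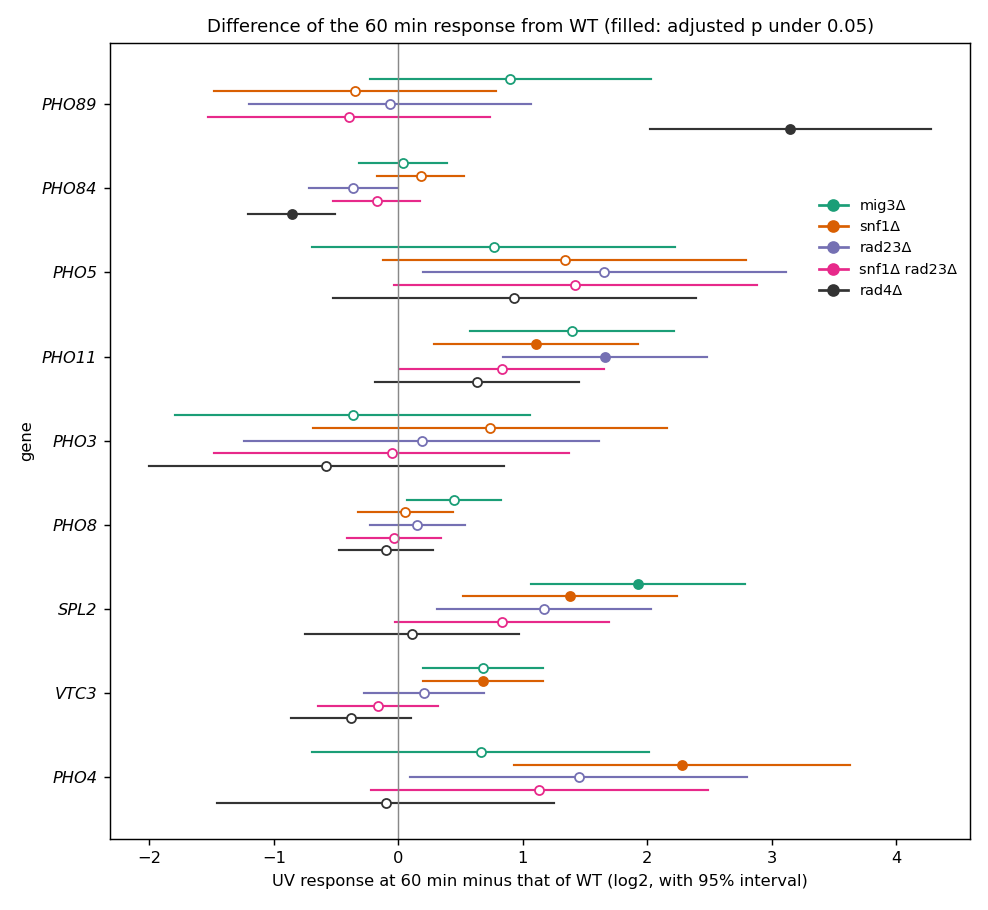
Log2 difference of the 60 min UV response in each of 5 deletion strains from that of WT (horizontal axis) for the 9 genes (vertical axis); points are estimates, lines 95% intervals, and filled points have an adjusted p under 0.05. In rad4Δ, PHO89 lies at 3.15 and PHO84 at -0.86, on opposite sides of 0.

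Other genes of the pathway were taken from lists chosen with earlier results of these data known. Of 13 further Pho4 targets 12 were tested against WT in unirradiated cells, with the share of all probe sets called in brackets. In snf1Δ rad23Δ 7 were higher and 0 lower (38.6%), in snf1Δ 5 and 2 (45.3%), and in rad23Δ 6 and 5 (47.6%). The counts were 0 and 2 in mig3Δ (8.31%) and 0 and 0 in rad4Δ (6.75%). GIT1, a carrier of glycerophosphoinositol, was higher than in WT by 2.93 in snf1Δ rad23Δ, 1.60 in snf1Δ and 1.84 in rad23Δ. PHM8, a phosphatase of nucleotides and lysophosphatidic acid, was higher by 2.95 in snf1Δ rad23Δ, 2.86 in snf1Δ and 1.70 in rad23Δ. All of these differences were called. VTC2, a subunit of the same polyphosphate complex as VTC3, was lower by 1.52 in rad23Δ (difference -1.52, adjusted p = 2.14e-08) and by 0.81 in mig3Δ (difference -0.81, adjusted p = 8.61e-04). These 2 are also the strains in which VTC3 was lower.

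In the rad4Δ response at 60 min, of 11 phosphate signalling genes 6 were higher and 4 lower, and of 6 other phosphate carriers 1 was higher and 4 lower. Of all probe sets, 53.8% were called in that response. PHO81, the inhibitor of Pho80 and Pho85, differed by -1.18 (adjusted p = 3.57e-06), and ARG82, an inositol polyphosphate kinase, by 2.53 (adjusted p = 8.22e-06). The low-affinity carrier PHO87 differed by -1.09 (adjusted p = 1.81e-05). PHM6, a Pho4 target, fell by 4.48 (adjusted p = 1.82e-05) to a mean of 3.14 in rad4Δ at 60 min, against 7.63 unirradiated, and so ended under the floor of 4.

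The patterns of the 9 genes over the 21 group means were not alike. Between pairs of them Pearson r ran from -0.42 (PHO11 and PHO3) to 0.70 (PHO84 and SPL2), with 0.67 for PHO5 and SPL2 and 0.25 for the transporters PHO89 and PHO84. Of all tested genes, that with the nearest pattern to VTC3 was VTC2 (r = 0.94), followed by SSB1 (0.92) and ILS1 (0.90). PHO3 was nearest to GAS1 (0.94), TDA9 (0.89) and GIS4 (0.88), and PHO5 to MAF1 (0.92), TDA7 (0.92) and SPT14 (0.90). PHO84 was nearest to URA2 (0.91), NCR1 (0.86) and ENO1 (0.86), and PHO89 to JID1 (0.84), QCR9 (0.83) and MAL13 (0.80). SPL2 was nearest to PMP3 (0.77), PHM6 (0.74) and URA1 (0.73), PHO11 to KTR7 (0.79), MAK11 (0.78) and YAP7 (0.77), PHO8 to ACS2 (0.78), KSS1 (0.75) and CDC40 (0.74), and PHO4 to BUD21 (0.81), RMD1 (0.78) and SFH1 (0.78). The points share strains, times and arrays, and no test was made.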

How the data were processed

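The authors deposited 1 log2 value per probe set and array, computed with GCRMA 2.10.0 in R 2.6.2 per the submitters' processing notes. GCRMA models background from each probe's sequence, quantile normalizes the arrays and combines the probes of a set. The values ran from 1.62 to 15.96 and were not transformed further. Of 10928 probe sets, 5498 matched a budding yeast gene in the R64 gene table and 213 were controls or reporters. A further 1747 with an annotation but no match in that table were taken as fission yeast probe sets. Probe sets outside these classes were not used. Probe sets that reached 4 on 2 or more arrays were kept, 5380 for 5337 genes, and 118 were left out. The fission yeast probe sets had a 95th percentile of 2.12 to 2.19 per array, and the lowest value of the 9 genes was 8.54. The number of arrays limits the precision.

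All 41 arrays entered a single limma 3.58.1 fit (R 4.3.3) of the 21 group means, leaving 20 residual degrees of freedom beside a prior of 2.86. The lone mig3Δ array at 15 min takes the spread of the other groups. Of 52 contrasts, 46 were planned and the 6 between 60 and 30 min were added after the values were seen. Adjusted p-values are Benjamini-Hochberg values over the 5380 probe sets of a contrast, with a threshold of 0.05. The fit was tested on simulated data. The 9 genes and the further lists were chosen with earlier results of these data known. For each of the 9 genes, the 3 genes with the highest Pearson r over group means were named. The further genes named are among those whose calls held without any of their arrays. Alternatives changed the filter (none, or fission yeast background), the scaling (quantiles or medians), the prior (trended and robust), the weights of arrays, the arrays in the fit and the use of replicate number as a block, or left out 1 array at a time. No label makes the replicate numbers pairs. The correlation of replicate differences between groups ran from -0.36 to 0.71 (median 0.03) over 190 pairs of groups, so they were not treated as pairs.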

Additional observations from a re-analysis of the deposited data

Results flagged for a closer look

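In 10 tests the UV response of a deletion strain differed from that of WT by the interaction term of the fit. PHO89 had a response 3.15 higher in rad4Δ than in WT at 60 min (SE 0.55, adjusted p = 4.36e-04) and 1.98 lower in snf1Δ rad23Δ at 30 min (difference -1.98, SE 0.55, adjusted p = 0.0476). PHO84 had a response 0.86 lower in rad4Δ at 60 min (difference -0.86, SE 0.17, adjusted p = 0.00136). PHO11 responses were higher in rad23Δ by 1.61 at 30 min (adjusted p = 0.0245) and 1.66 at 60 min (adjusted p = 0.00756), and in snf1Δ by 1.11 at 60 min (adjusted p = 0.0492). The PHO4 response was higher by 2.28 in snf1Δ at 60 min (adjusted p = 0.0153). The SPL2 response was higher at 60 min by 1.93 in mig3Δ (adjusted p = 0.0207) and 1.38 in snf1Δ (adjusted p = 0.0202), and that of VTC3 by 0.68 in snf1Δ (adjusted p = 0.0400). Unirradiated means often lay apart from WT. PHO11 began at 12.56 in rad23Δ and 13.26 in snf1Δ against 14.22 in WT, and PHO4 at 8.83 in snf1Δ against 10.62. SPL2 began at 11.10 in mig3Δ against 12.31, and PHO89 at 13.35 in snf1Δ rad23Δ and 8.75 in rad4Δ against 11.64. VTC3 in snf1Δ began at 13.49 against 13.77. PHO84 in rad4Δ began level with WT (14.60 each), and SPL2 in snf1Δ close to it (12.22).

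The rad4Δ differences of PHO89 and PHO84 and the rad23Δ difference of PHO11 at 60 min held without any of their 8 arrays. The PHO89 difference in snf1Δ rad23Δ and the PHO11 difference in snf1Δ were lost without any of 8 arrays, and the other 5 without some of them. The comparisons at 60 min share the WT arrays of that time, which differed over 2-fold at 780 probe sets.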

How the results depend on the processing

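Of 99 calls of the 9 genes over all contrasts, 44 held without each of their arrays, and 41 of these also under every other setting apart from the arrays of the contrast alone. Leaving out 1 array at a time gave 30 to 50 calls in UV responses (36 with all arrays), 10 to 20 in unirradiated deletion strains minus WT (15), 18 to 40 in irradiated ones minus WT (23), 4 to 25 in differences of response (10), 2 to 5 in snf1Δ rad23Δ minus a single deletion strain (4), and 8 to 25 at 60 minus 30 min (11). Most of the highest counts came without an array of mig3Δ at 60 min. Leaving out WT at 60 min and mig3Δ at 30 and 60 min, chosen after seeing the data, gave 46 against 25 over the same contrasts in UV responses, 25 against 15 in unirradiated deletion strains, 25 against 10 in irradiated ones, 9 against 2 in differences of response, 9 against 4 in snf1Δ rad23Δ minus a single deletion strain and 22 against 7 at 60 minus 30 min.

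Array weights gave 36 calls in irradiated strains minus WT, 8 in snf1Δ rad23Δ minus a single deletion strain and 18 at 60 minus 30 min. They lost 17 of the 99 calls and added 64. The arrays of each contrast alone lost 43 and added 43, and gave 6 differences of response. Quantile normalization lost 3 and added 4, median centring lost 4 and added 1, and no filter lost 1 and added 1. The fission yeast filter lost 0 and added 0, and the trend with a robust prior lost 0 and added 4. The largest shift of the all-gene median under quantile normalization was 0.107. Each gene had 1 probe set, so the choice among probe sets gave no other value.

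Replicate numbers were no stated pairs: same-strain groups had a median correlation of replicate differences of 0.23 and a lowest of -0.35. A replicate block lost 2 calls, kept 97 and added 1, with 36, 15, 23, 9, 4 and 11 calls in the order above. A block of replicate number within strain lost 0 and added 29, and gave 19 differences of response and 19 calls at 60 minus 30 min.

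PHO3 changed direction with the WT arrays at 60 min, which read 12.68 and 9.59, and each pair of values here is without replicate 1 and without replicate 2. The WT response at 60 min was -3.07 and 0.0245, and WT at 60 minus 30 min -2.24 and 0.85. Differences from WT at 60 min were 1.60 and -1.50 in mig3Δ, 1.82 and -1.27 in snf1Δ, 2.13 and -0.97 in rad23Δ, 1.84 and -1.26 in snf1Δ rad23Δ, and 1.48 and -1.62 in rad4Δ. Differences of response at 60 min were 1.18 and -1.92 in mig3Δ, 2.28 and -0.81 in snf1Δ, 1.73 and -1.36 in rad23Δ, 1.49 and -1.60 in snf1Δ rad23Δ, and 0.97 and -2.13 in rad4Δ.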

Other observations

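Outside the 9 genes, PHM7, a Pho4 target whose product is a membrane protein of uncertain role, was higher before UV in the strains without SNF1 or RAD23. It averaged 10.24 in snf1Δ, 9.80 in rad23Δ and 8.86 in snf1Δ rad23Δ, against 5.94 in WT. PHM7 was higher than in WT by 4.30 in snf1Δ (SE 0.49, adjusted p = 3.10e-07), by 3.86 in rad23Δ (adjusted p = 1.39e-06) and by 2.92 in snf1Δ rad23Δ (adjusted p = 7.03e-05). PHO92, which encodes a reader of methylated adenosine in RNA linked to PHO4 transcript stability, averaged 5.30 in rad23Δ against 2.55 in WT, a difference of 2.76 (adjusted p = 3.58e-06), with WT near background.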
